A study of Mus musculus with 16 samples.

Results

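The 7 genes described here write, copy or oxidise the methyl mark on DNA. Dnmt3a and Dnmt3b encode the de novo DNA methyltransferases, Dnmt1 encodes the maintenance methyltransferase, and Uhrf1 encodes the protein that brings Dnmt1 to newly replicated DNA. Tet1, Tet2 and Tet3 encode dioxygenases. The 7 genes were chosen by name, with earlier results of these data known. They are 7 of 30176 genes measured on 16 whole-transcript mouse arrays, and each was read by 1 probe set that names no other gene. The arrays compared hematopoietic stem and progenitor cells of WT mice with those of Camkk2-/- (Camkk2 null) mice, which lack a kinase that responds to calcium and calmodulin. From the bone marrow of each genotype, Lin-Kit+Sca1+ cells (KSL, the fraction that holds the stem cells) and Lin-Kit+Sca1- cells (KL, the more committed progenitors) were sorted straight into lysis buffer. Both cell types of both genotypes were hybridised, which makes 4 groups of 4 arrays, and 16 mice per genotype stood behind the 4 biological replicates. The labels name no treatment. The study's discussion speaks of Camkk2 deletion in the germ line, and strain, age and sex were not given in the sources used here.

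A methyl group on cytosine, mostly at CG sites, is set by the de novo enzymes and copied after replication by DNMT1 with UHRF1. TET enzymes oxidise it to hydroxymethylcytosine and further forms, which are diluted at replication or cut out by base excision repair. In blood, mouse stem cells without Dnmt3a or Tet2 self-renew at the cost of differentiation, and both genes are often mutated in human myeloid disease.

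The genotype of every array rested on its label. Camkk2 itself ranged from 7.11 to 8.02 (log2 signal) on the WT arrays of KSL and from 7.14 to 7.93 on the null arrays, and the KL ranges of 6.89 to 7.86 and 7.08 to 7.83 overlapped as well. What the spread followed was the replicate number, since replicates 1 and 2 lay between 7.81 and 8.02 and replicates 3 and 4 between 6.89 and 7.48 in the 4 groups. The difference between labels was -0.13 in KSL (SE 0.243, adjusted p = 0.714 from limma), and it is not known if the probe set covers the part of the gene that was deleted. Genes of blood lineages divided by the genotype label. The mean of 5 lymphoid priming genes, relative to its mean over the 16 arrays, lay between 0.67 and 1.17 on all WT arrays and between -1.09 and -0.59 on all null arrays, and all 5 were called lower in each cell type. All 5 measured erythroid genes were higher, with list means from -1.61 to -0.78 under WT and from 0.71 to 1.40 under null. Of 7 stem and progenitor genes 6 were lower in each cell type, Kit of the sort gate among them (-0.75 in KSL and -0.64 in KL), and granulocyte-macrophage genes were higher for 6 of 7 in KSL and 7 of 7 in KL. Cell type labels divided the arrays less. In fits on all 16 arrays 33 genes passed between KSL and KL under WT (0.109% of those tested) and 324 under null (1.07%), against 7606 between genotypes in KSL and 4913 in KL. Ly6a, the gene of Sca-1, is not analysed here, so the gate that separates KSL from KL was not checked by its own gene. No stem and progenitor gene was called higher in KSL than in KL under either label. Under WT none of the 7 was called, with a median of -0.20 (KSL minus KL). Under null, Cd34 (-0.80) and Meis1 (-0.69) were called lower in KSL. Of the 5 erythroid genes 3 were called higher in KSL under null, and none under WT. The cause was not tested. From the array values alone, a set whose cell type and genotype had been swapped cannot be told apart from one that shows genotype. The study also examined CaMKK2 protein in sorted cells and silenced Camkk2 in a cell line, and those measurements are not used here. T and B cell markers gave no call between genotypes, and their list means stayed between -0.11 and 0.11 on every array. Some markers of other cells did follow the label. Of 5 mature granulocyte and monocyte markers Itgam was lower (-0.71 in KSL and -0.51 in KL), with list means from -0.05 to 0.18 under WT and from -0.12 to -0.00 under null. Of 3 endothelial markers Pecam1 was lower in each cell type (-0.77 and -0.51) and Cdh5 in KL (-0.34), with list means from 0.03 to 0.38 under WT and from -0.28 to -0.07 under null. Of 4 mast cell and basophil markers none was called in KSL, and Cpa3 (0.89) and Gzmb (1.29) were higher in KL, where the list mean ran from -0.99 to 0.13 under WT and from 0.18 to 0.63 under null.

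Promoters are shown for the members with the largest changes, Dnmt3b and Tet1, and for the maintenance pair Dnmt1 and Uhrf1, which gave no call, so that the motifs of S phase genes can be read in each. Each is the 300 bases from 250 before to 50 from the annotated start, in the RefSeq table of GRCm38.p6, printed 5′ to 3′ on the strand of the gene. Capitals mark matches, on either strand, to CCAAT or to TTTCCCGC, TTTGGCGC, TTTGCCGC and TTTCGCGC, forms bound by E2F factors, which drive the genes of S phase. Dnmt3b (chr2:153649199-153649498, plus strand) and Tet1 (chr10:62887275-62887574, minus strand) hold none of them, and Dnmt1 (the window at chr9:20952574-20952873, minus strand) and Uhrf1 (chr17:56304063-56304362, plus strand) hold both kinds.
Dnmt3b: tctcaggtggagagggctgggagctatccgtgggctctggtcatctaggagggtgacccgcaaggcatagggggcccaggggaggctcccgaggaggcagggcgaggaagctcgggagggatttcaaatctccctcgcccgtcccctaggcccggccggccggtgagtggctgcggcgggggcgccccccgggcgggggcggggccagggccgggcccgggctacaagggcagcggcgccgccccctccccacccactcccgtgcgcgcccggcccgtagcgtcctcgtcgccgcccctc
Tet1: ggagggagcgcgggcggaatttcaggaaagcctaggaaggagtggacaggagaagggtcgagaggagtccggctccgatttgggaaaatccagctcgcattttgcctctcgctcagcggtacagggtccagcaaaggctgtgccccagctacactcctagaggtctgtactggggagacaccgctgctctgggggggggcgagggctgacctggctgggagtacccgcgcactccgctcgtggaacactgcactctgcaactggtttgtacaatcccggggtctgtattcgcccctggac
Dnmt1: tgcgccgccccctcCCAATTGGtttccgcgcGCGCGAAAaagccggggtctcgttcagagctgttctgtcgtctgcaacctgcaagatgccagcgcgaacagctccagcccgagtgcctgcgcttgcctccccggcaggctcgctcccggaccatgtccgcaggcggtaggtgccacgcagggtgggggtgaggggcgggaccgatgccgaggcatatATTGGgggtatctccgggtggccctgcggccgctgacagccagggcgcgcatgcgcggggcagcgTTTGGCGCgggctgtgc
Uhrf1: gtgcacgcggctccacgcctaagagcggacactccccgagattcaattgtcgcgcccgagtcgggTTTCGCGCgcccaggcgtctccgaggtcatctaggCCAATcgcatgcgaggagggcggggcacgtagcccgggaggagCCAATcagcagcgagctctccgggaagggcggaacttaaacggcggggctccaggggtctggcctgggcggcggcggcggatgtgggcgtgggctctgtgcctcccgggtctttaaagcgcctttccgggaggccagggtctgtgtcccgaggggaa
Positions count from the annotated start as 1. In the Dnmt1 window TTTGGCGC begins at 34 and TTTCGCGC lies on the other strand at -219, and near its 5′ end a CCAAT on each strand overlap. In the Uhrf1 window TTTCGCGC begins at -185, with CCAAT at -150 and -107. The table gives 12 windows for the 7 genes, since Dnmt1 and Dnmt3a have 3 each and Uhrf1 has 2, and no other window of the 7 holds an E2F form. For Dnmt1 and Uhrf1 the printed window was picked because it holds one. An E2F form is present in 2.26% of all 32851 windows, TTTGGCGC alone in 0.514%, TTTCGCGC alone in 0.323% and CCAAT in 37.4%. CCAAT is also found in the first windows of Dnmt1 and Uhrf1 and in that of Tet3. A match is a stretch of letters and not a bound site, and its absence speaks only of these windows. In CG sites, the substrate of the enzymes themselves, Tet2 is the densest, with 57 in its window where 99.8% of all windows have fewer. The 3 windows of Dnmt3a hold 46, 47 and 18, that of Dnmt3b 30, that of Tet3 22 and that of Tet1 17, beside a median of 7 over all windows. The printed windows of Dnmt1 and Uhrf1 hold 33 each, but they were picked for an E2F form, which itself contains a CG. The other windows of Dnmt1 hold 2 and 12, and the other window of Uhrf1 holds 12.

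In KSL, 3 of the 7 genes fell on the arrays labelled null and none rose: the de novo enzymes Dnmt3a and Dnmt3b, and Tet1. A gene was called at an adjusted p under 0.05 (limma, Benjamini-Hochberg over all 30176 genes), which 10.5% of all genes passed as lower and 19.0% passed in either direction. The median log2 change of the 7 was -0.13, beside 0.05 over all genes. With a fold of at least 1.5 as well, Dnmt3b and Tet1 passed, where 3.70% of all genes passed as lower. In KL the same 3 genes fell, where 8.69% of all genes passed as lower and 15.8% in either direction. There the median of the 7 was 0.05 beside 0.03 over all genes, and Tet1 was the member that also passed the fold of 1.5, where 2.72% of all genes passed as lower. In sorted pools such as these, fewer cells of a type and less RNA per cell cannot be told apart. In KSL all null arrays lay below all WT arrays for 4 members, the called genes and Tet3, as for 11.8% of all genes, and in KL for the 3 called genes, as for 10.2% of all genes. Lymphoid and stem cell genes, Itgam and Pecam1 fell with the same labels and erythroid genes rose, as given above, and their part in the changes of the 7 genes was not tested.

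**Figure D1:**
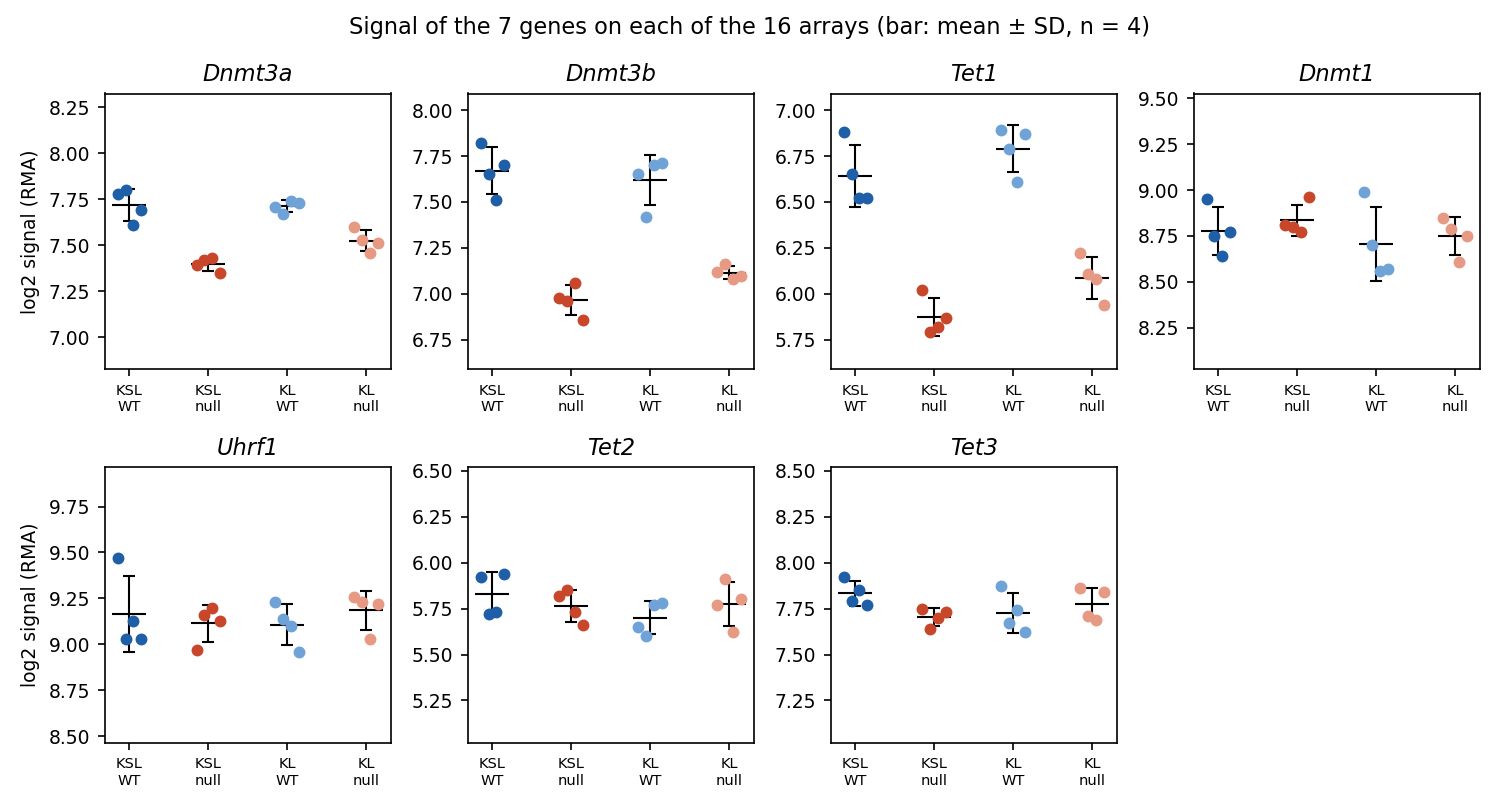
Log2 RMA signal (vertical axis, a span of equal length in each panel) of each gene on the 16 arrays, 1 point an array, in KSL and KL labelled WT (blue) and Camkk2 null (red), with a bar for the mean and whiskers for the SD (n = 4). For Dnmt3a, Dnmt3b and Tet1 every null array lies below every WT array of its cell type, and for Dnmt1, Uhrf1 and Tet2 the labels overlap in both cell types.

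Dnmt3a, which sets new methyl marks in stem cells and their progeny (chr12:3801559-3914443, GRCm38.p6), read 7.78, 7.80, 7.61 and 7.69 on the KSL arrays labelled WT, against 7.39, 7.42, 7.43 and 7.35 under the null label. No null array reached the lowest WT array. Its log2 change was -0.32 (SE 0.0561, 95% interval -0.45 to -0.20, adjusted p = 0.00303 from limma), a fold of 1.25. In KL it read 7.71, 7.67, 7.74 and 7.73 under WT and 7.60, 7.53, 7.46 and 7.51 under null. The labels stayed apart there too, by a smaller step of -0.19 (SE 0.0458, 95% interval -0.29 to -0.09, adjusted p = 0.0196 from limma). Of the 6 calls it was the one that leaving out 1 array could end. The adjusted p from limma was 0.0521 without WT replicate 4, 0.0506 without null replicate 2 and 0.0650 without null replicate 3, with changes of -0.18, -0.19 and -0.17.

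Dnmt3b, the second de novo enzyme (chr2:153649411-153687730), fell further. It read 7.82, 7.65, 7.51 and 7.70 in KSL labelled WT against 6.98, 6.96, 7.06 and 6.86 in KSL labelled null. The lowest WT array stood well above the highest null array, and the change was -0.71 (SE 0.0730, 95% interval -0.87 to -0.54, adjusted p = 0.000128 from limma), a fold of 1.63. In KL the WT arrays read 7.65, 7.42, 7.70 and 7.71 and the null arrays 7.12, 7.16, 7.08 and 7.10. WT replicate 2 was the nearest to the null arrays and still lay above them all. The KL change was -0.50 (SE 0.0672, 95% interval -0.65 to -0.35, adjusted p = 0.000784 from limma), a fold of 1.42.

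Set against each other within arrays, Dnmt3b stepped down further than Dnmt3a. The difference Dnmt3a minus Dnmt3b, set to a mean of 0 over the 16 arrays, ran from -0.29 to -0.10 in KSL labelled WT and from 0.12 to 0.24 in KSL labelled null. Between the labels it moved by 0.38 in KSL and by 0.31 in KL (two-sided exact permutation p = 0.0286 in each, adjusted p = 0.0476 over 10 tests). This p is the smallest that 4 against 4 arrays allow.

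Tet1, an oxidase of methylated cytosine with a CXXC domain that binds CG-rich DNA (chr10:62804570-62887469), had the largest change of the 7 in each cell type. The KSL arrays labelled WT read 6.88, 6.65, 6.52 and 6.52, and those labelled null 6.02, 5.79, 5.82 and 5.87. All null arrays lay below all WT arrays, with replicate 1 the highest of its group under each label. The change was -0.77 (SE 0.0880, 95% interval -0.96 to -0.57, adjusted p = 0.000245 from limma), a fold of 1.70. KL labelled WT read 6.89, 6.79, 6.61 and 6.87, and KL labelled null 6.22, 6.11, 6.08 and 5.94. These ranges did not meet either, and the change was -0.70 (SE 0.0781, 95% interval -0.87 to -0.52, adjusted p = 0.000285 from limma), a fold of 1.62.

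Tet2, the TET gene best known from blood, has no CXXC domain of its own (chr3:133463677-133545136). It read 5.92, 5.72, 5.73 and 5.94 on the KSL arrays labelled WT, against 5.82, 5.85, 5.73 and 5.66 under the null label, and the groups were interleaved. Its change was -0.07 in KSL (95% interval -0.22 to 0.09, adjusted p = 0.524 from limma) and 0.08 in KL (95% interval -0.08 to 0.23, adjusted p = 0.529). The KL arrays read 5.65, 5.60, 5.77 and 5.78 under WT and 5.77, 5.91, 5.62 and 5.80 under null. As log2 signal, a fall the size of that of Tet1 lay outside these intervals. Whether a probe set this low would show an equal fall in RNA was not tested. The mean signal of the Tet2 probe set, unlike those of the other 6 members, was below 5.89, the median over all genes. Tet1 reached that level in KSL labelled null, with a group mean of 5.88, and stood at 6.09 in KL labelled null.

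Tet3, the third TET gene (chr6:83362373-83457208), gave a smaller step that missed the threshold. KSL labelled WT read 7.92, 7.79, 7.85 and 7.77, and the null arrays 7.75, 7.64, 7.70 and 7.73. The ranges did not overlap, and the change of -0.13 (95% interval -0.24 to -0.01) had an unadjusted p of 0.0373 and an adjusted p of 0.118 from limma. In KL the WT arrays read 7.87, 7.67, 7.74 and 7.62 and the null arrays 7.86, 7.71, 7.69 and 7.84, which overlapped, with a change of 0.05 (95% interval -0.10 to 0.20, adjusted p = 0.657 from limma).

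Within the TET family the fall of Tet1 differed from the changes of its relatives. The difference Tet1 minus Tet2, centred over the 16 arrays, went from a range of -0.01 to 0.39 in KSL labelled WT to one of -0.64 to -0.36 in KSL labelled null, a shift of -0.70. For Tet1 minus Tet3 the shift was -0.64 in KSL, and in KL the shifts were -0.77 and -0.75. None of these 4 comparisons overlapped between labels, and each had a two-sided exact permutation p of 0.0286 and an adjusted p of 0.0476. Tet2 minus Tet3 shifted by 0.06 in KSL (exact permutation p = 0.486) and by 0.02 in KL (exact permutation p = 0.829), with overlapping arrays. In all, 6 pair differences shared the smallest p that the design gives, and they stood or fell together under the adjustment. None was past the threshold when any of the 4 KL null arrays was left out, where the lowest adjusted p among the KL pairs was 0.0571, while the KL shifts of Tet1 against Tet2 and Tet3 stayed between -0.82 and -0.68.

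**Figure D2:**
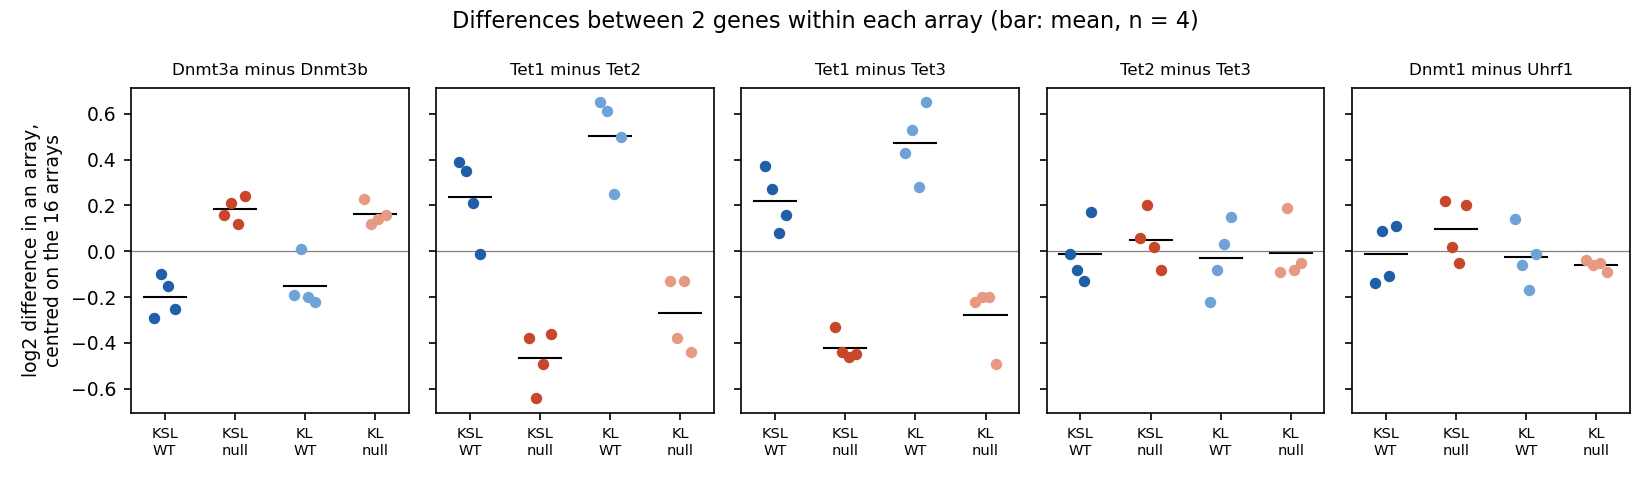
Difference in log2 signal between 2 genes of a family within each array (vertical axis, centred on the mean of the 16 arrays), 1 point an array with the group mean as a bar (n = 4), in KSL and KL labelled WT (blue) and Camkk2 null (red). Dnmt3a minus Dnmt3b moves up and Tet1 minus Tet2 and Tet1 minus Tet3 move down under the null label, while Tet2 minus Tet3 and Dnmt1 minus Uhrf1 overlap.

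The maintenance pair gave no call in either cell type. Dnmt1 (chr9:20907206-20959888) read 8.95, 8.75, 8.64 and 8.77 on the KSL arrays labelled WT, against 8.81, 8.80, 8.77 and 8.96 under the null label, and the labels overlapped. The change was 0.06 (95% interval -0.11 to 0.22, adjusted p = 0.600 from limma), and in KL it was 0.05 (95% interval -0.17 to 0.26, adjusted p = 0.800). The KL WT arrays of Dnmt1 spread from 8.56 to 8.99, a wider range than that of KL labelled null (8.61 to 8.85). Uhrf1 (chr17:56303337-56323486) read 9.47, 9.03, 9.13 and 9.03 on the KSL arrays labelled WT, against 8.97, 9.16, 9.20 and 9.13 under the null label. WT replicate 1 was the high array of that group. Its change was -0.05 (95% interval -0.27 to 0.17, adjusted p = 0.735 from limma) with that array and 0.05 without it. In KL, Uhrf1 ranged from 8.96 to 9.23 under WT and from 9.03 to 9.26 under null (change 0.08, 95% interval -0.08 to 0.24, adjusted p = 0.528 from limma). Dnmt1 minus Uhrf1 shifted by 0.11 in KSL (exact permutation p = 0.314) and by -0.03 in KL (exact permutation p = 0.686). All 4 intervals of the maintenance pair left out a fall of the size seen for Dnmt3b.

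**Figure D3:**
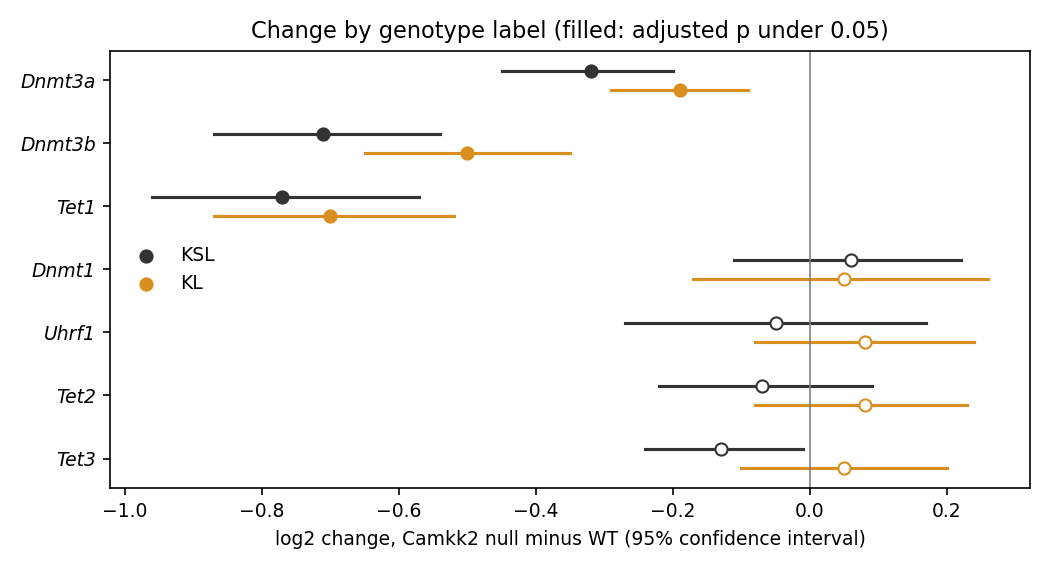
Log2 change from WT to Camkk2 null (horizontal axis) of each gene in KSL (dark) and KL (orange), with 95% confidence intervals, filled where the limma adjusted p was under 0.05 (n = 4 arrays a group). The intervals of Dnmt3a, Dnmt3b and Tet1 lie below 0 in both cell types, and that of Tet3 in KSL reaches -0.01.

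Whether the genotype step differed between KSL and KL was tested on all 16 arrays. No member passed, and none of the 30176 genes did (0%, while 1867 had an unadjusted p under 0.05, or 6.19%, from limma). For Dnmt3a the KSL step was lower than the KL step by 0.14 (difference -0.14, 95% interval -0.28 to 0.01, adjusted p = 0.793 from limma), and for Dnmt3b the difference was -0.20 (95% interval -0.42 to 0.01, adjusted p = 0.793). The Tet1 steps were closer, with a difference of -0.07 (95% interval -0.33 to 0.19, adjusted p = 0.930). That of Tet3 was -0.18 (unadjusted p = 0.0472, adjusted p = 0.793). With intervals this wide, a modest difference between the cell types was not detectable with these arrays.

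KSL and KL themselves did not differ in any member at an adjusted p under 0.05, under either genotype label (33 genes passed under WT, 324 or 1.07% under null, from limma). Under WT the differences, KSL minus KL, ran from -0.14 for Tet1 to 0.13 for Tet2, and Dnmt3a was at 0.01 (95% interval -0.09 to 0.11). Under null, Dnmt3a lay lower in all KSL null arrays than in all KL null arrays, by 0.13 on average (difference -0.13, unadjusted p = 0.0185, adjusted p = 0.267 from limma), and so did Dnmt3b (difference -0.15, unadjusted p = 0.0549, adjusted p = 0.409). Such a separation in either direction was found for 8.90% of all genes in that comparison. Tet1 was at -0.21 (unadjusted p = 0.0276, adjusted p = 0.319) with overlapping arrays.

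Ranked by group mean, Dnmt3a and Dnmt3b ran in the same order, with KSL WT highest, then KL WT, KL null and KSL null. Only the WT groups, first and second in that order, overlapped. For Tet1 the order was KL WT, KSL WT, KL null and KSL null, and the arrays separated only between KSL WT and KL null, 0.56 apart. Dnmt1, Uhrf1, Tet2 and Tet3 had orders in which every neighbouring pair of groups overlapped, so their neighbours did not differ beyond the spread.

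Over the 16 arrays the genes most like each called member were taken by the smallest root mean square difference between centred log2 values, among 19579 named genes. For Dnmt3a these were Ube2q1 (0.0489), Msra (0.0577) and Ino80d (0.0606), where the SD of Dnmt3a itself was 0.150. For Dnmt3b, with an SD of 0.331, they were Samd12 (0.0722), Arhgap26 (0.0805) and Smarca2 (0.0842), an ATPase of the BAF chromatin remodeller. For Tet1, with an SD of 0.407, they were Map4k4 (0.0812), Cd72 (0.0872) and Srebf2 (0.0975), the transcription factor of cholesterol synthesis. All 9 were lower under null in both cell types, as a likeness over these groups fixes. Dnmt3b and Tet1 differed from each other by 0.156 and Dnmt3a and Dnmt3b by 0.188 on this measure, so no member was among the nearest genes of another.

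Most partners of the methyltransferases were not called, and those that were lay in both directions. For the lists that follow, 8.50% of all genes passed as higher in KSL and 7.13% in KL, beside the 10.5% and 8.69% that passed as lower. Of 20 measured partners of the methyltransferases 5 were lower and 1 higher in KSL (median -0.15, beside 0.05 over all genes), and 2 were lower and 1 higher in KL (median -0.00, beside 0.03). Cdca7 works with the remodeller HELLS, which opens nucleosomal DNA for methylation. It read 9.71 to 10.04 in KSL labelled WT and 9.40 to 9.56 in KSL labelled null, and the groups did not overlap. Its change was -0.35 (SE 0.0758, adjusted p = 0.00977 from limma), and -0.28 in KL (adjusted p = 0.0138). Its paralog Cdca7l fell by 0.43 in KSL (SE 0.108, adjusted p = 0.0205), and in KL, where it read 8.71 ± 0.0831 (SD, n = 4) under null and 8.94 ± 0.128 under WT, it was not called. Nsd2, a histone H3 lysine methyltransferase, changed by -0.30 (adjusted p = 0.0165), Uhrf2, the relative of Uhrf1, by -0.22 (adjusted p = 0.0460), and the clamp gene Pcna by -0.18 (adjusted p = 0.0406), all in KSL. Daxx, a histone chaperone, was higher by 0.20 in KSL (adjusted p = 0.0438). Beside Cdca7, the partners called in KL were Zbtb24, lower (-0.36, adjusted p = 0.00672), and Hdac2, higher (0.20, adjusted p = 0.0210).

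Of 13 measured TET partners and enzymes of their cofactor supply, 5 were lower and 1 higher in KSL (median -0.02), and 3 were lower and 2 higher in KL (median 0.09). Ogt encodes the O-GlcNAc transferase that binds TET proteins. It ranged from 9.69 to 9.85 in KSL labelled WT and from 8.99 to 9.20 in KSL labelled null, a change of -0.69 (SE 0.0630, adjusted p = 6.33e-05 from limma), and of -0.42 in KL (adjusted p = 0.00218). Cxxc5, a CXXC protein related to the DNA-binding partner of TET2, fell by 0.60 in each cell type (adjusted p = 0.000259 in KSL and 0.000366 in KL, limma). The isocitrate dehydrogenases supply the oxoglutarate that TET enzymes use, and they did not move together. Mitochondrial Idh2 fell by 0.43 in KSL (adjusted p = 0.000552), while Idh3a, the catalytic subunit of the NAD-dependent enzyme, rose by 0.59 in KSL and by 0.56 in KL (adjusted p = 0.00127 and 0.000613). Idh3g, another subunit of that enzyme, was at -0.32 in KSL (adjusted p = 0.0150). In KL neither Idh2 (-0.19, adjusted p = 0.0904) nor Idh3g (-0.08, adjusted p = 0.466) was called. Idh1 was called higher in KL (0.36, adjusted p = 0.0434) and not in KSL. D2hgdh, which removes the TET inhibitor hydroxyglutarate, was lower by 0.34 in KSL (change -0.34, adjusted p = 0.0175) and at -0.28 in KL (adjusted p = 0.0403).

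Steps after oxidation and steps that read the mark were mixed too. Of 16 genes of active demethylation and base excision 2 were lower and 2 higher in KSL (median 0.00), and 1 was lower and 2 higher in KL (median 0.03). Gadd45a, a stress-induced gene linked to demethylation, rose by 0.60 in KSL (SE 0.0588, adjusted p = 9.64e-05 from limma) and by 0.57 in KL (adjusted p = 0.00228). Apobec3, a cytidine deaminase that restricts retroviruses, changed by -0.59 in KSL (adjusted p = 0.000124) and -0.43 in KL (adjusted p = 0.000885). The glycosylase gene Neil3 was at -0.54 in KSL (adjusted p = 0.000823) and at -0.29 in KL, where it was not called (adjusted p = 0.0780). Gadd45g was at 0.22 in KSL (adjusted p = 0.0454), and the endonuclease gene Apex1 at 0.29 in KL (adjusted p = 0.00111). Among 7 methyl-CpG readers, 2 were lower and 1 higher in each cell type (medians -0.12 and -0.10). Mbd2, a repressor that binds methylated CG sites, read 7.52 to 7.90 in KSL labelled WT and 8.13 to 8.20 in KSL labelled null, a rise of 0.53 (SE 0.0807, adjusted p = 0.00140). In KL it rose by 0.58 (adjusted p = 0.000885). Zfp57, which guards imprinted loci, changed by -0.19 and Zbtb4 by -0.16 in KSL, and by -0.23 and -0.13 in KL, all past the threshold. The group means of Zfp57 lay between 5.27 and 5.50, below the median of 5.89 over all genes.

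Genes of the methyl donor supply were called more often higher than lower in KL. Of 14 genes of the S-adenosylmethionine and folate cycle 1 was higher and 1 lower in KSL (median 0.11), and 5 were higher and none lower in KL (median 0.12). Mthfd1, a folate enzyme that also feeds nucleotide synthesis, read 8.82 to 9.46 in KSL labelled WT and 10.21 to 10.39 in KSL labelled null. It rose by 1.28 (SE 0.125, adjusted p = 8.79e-05 from limma), and by 1.45 in KL (adjusted p = 7.59e-06), with no overlap in either. Shmt1, a serine hydroxymethyltransferase, was the gene that fell in KSL (change -0.42, adjusted p = 0.0135). In KL, Ahcy, which clears the inhibitory product of methylation, was at 0.42 (adjusted p = 0.00335) and the methionine synthase Mtr at 0.31 (adjusted p = 0.0229). Mthfd2 (0.40, adjusted p = 0.000861) and Bhmt (0.20, adjusted p = 0.0229) were the remaining genes called there. The KL means of Bhmt, 5.07 under WT and 5.27 under null, lay below the median of 5.89 over all genes.

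Genes of S phase, in which DNMT1 and UHRF1 copy the mark, were higher under the null label where they were called. Of 28 measured, 12 were higher and none lower in KSL (median 0.17), and 14 were higher and none lower in KL (median 0.25), beside the medians of 0.05 and 0.03 over all genes. Ccne1, cyclin E1, rose by 1.87 in KSL (SE 0.110, adjusted p = 4.04e-06 from limma) and by 1.90 in KL. Cdc6, a licensing factor of replication origins, rose by 0.92 and 0.91, and the ribonucleotide reductase genes Rrm2 and Rrm1 rose by 0.73 and 0.59 in KSL and by 0.79 and 0.53 in KL. Pcna, the replication clamp, stood on the list of partners and not on this one, and it was called lower in KSL (-0.18, adjusted p = 0.0406). The list mean, relative to the 16 arrays, lay between -0.16 and 0.04 in KSL labelled WT and between 0.11 and 0.24 in KSL labelled null. Dnmt1 and Uhrf1, with changes of 0.06 and -0.05 in KSL, had no call beside these genes. E2f1 itself was at 0.08 in KSL (adjusted p = 0.297) and 0.09 in KL (adjusted p = 0.324).

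**Figure D4:**
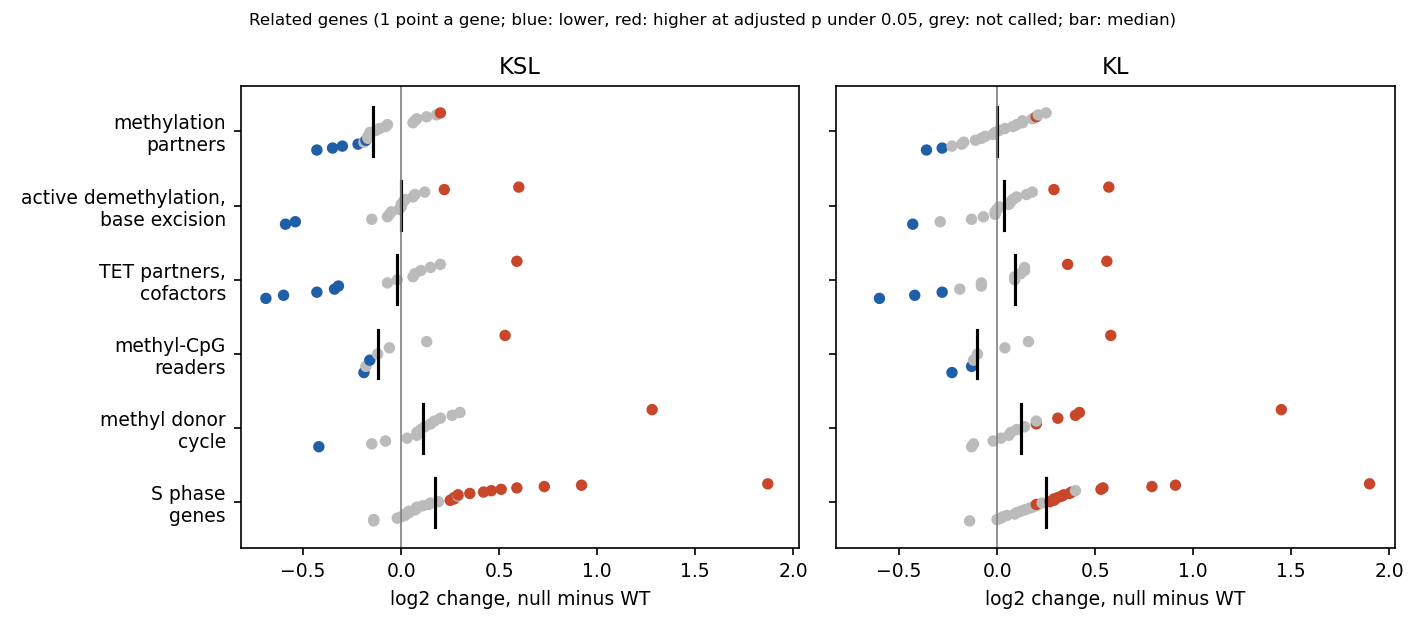
Log2 change from WT to Camkk2 null (horizontal axis) of each measured gene of 6 lists in KSL (left) and KL (right), 1 point a gene, blue where called lower, red where called higher and grey where not called by limma at an adjusted p under 0.05, with a bar at the list median. Called S phase genes are all red, up to Ccne1 at 1.87 in KSL, and the other lists hold both colours in KSL.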

How the data were processed

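The authors deposited log2 values that, per the labels, were made in Partek 6.6 with RMA, which corrects for background, equalises the arrays' distributions and summarises probes, from biotin-labelled total RNA. They lay between 2.14 and 15.01, the medians of single arrays between 5.01 and 5.12, and no 2 arrays held identical values. The number of arrays limits the precision. Of 72688 features, 6732 were controls, 33142 were not listed in the platform annotation used here and 2176 named several genes; these were left out. The 30638 others gave 30176 genes, by the brightest probe set where a gene had several. Groups came from the labels.

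Genotypes were compared by a two-sided moderated test (limma 3.58.1, R 4.3.3) with Benjamini-Hochberg adjustment over all genes, on the 8 arrays of a cell type, and the other contrasts on all 16 arrays. Pairs of members were compared by exact permutation of arrays. Shifts were simulated in 200 of the 30176 genes. At 0.6 the KSL fit recovered 92.5% and the KL fit 86.6%, and at 0.3 each recovered 38.8%. Far more genes were called between the real genotypes, and the adjustment depends on that share, so these rates need not hold there. The study's methods name no test for the arrays and Student's tests in general, tried as an alternative. Same-numbered arrays of different groups deviated together weakly (correlations of -0.01 to 0.24), and no block was used in the main fits. Camkk2 did divide by replicate number in all 4 groups, and fits with the block are given below.

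The 7 genes and the lists were chosen with earlier results of these data known. From each list the text names the genes called in KSL, at most the 4 with the largest changes in each direction. Pcna, Idh3g, E2f1, the markers and genes called only in KL were named after their values were seen. Promoter windows came from a RefSeq table of GRCm38.p6. Tdg and Ly6a are among the listed genes not analysed here.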

Additional observations from a re-analysis of the deposited data

Results flagged for a closer look

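Among 160 groups of 4 arrays, over 40 genes that include the related genes and the nearest genes, 9 held 1 array whose gap to the others passed Dixon's 95% critical value. By chance about 5 percent of groups do. Cdca7 stood low in KL WT replicate 4 (9.75, the others 9.91 to 9.93) and high in KL null replicate 1 (9.73, the others 9.54 to 9.57). Replicate 1 of KSL labelled WT stood apart for 3 genes, with Gadd45a at 7.56 (7.75 to 7.79 on the others), Cxxc5 at 7.57 (7.38 to 7.39) and Mbd2 at 7.90 (7.52 to 7.58). In KSL null replicate 3, Idh2 read 8.93 beside 8.83 to 8.84 and Rrm1 read 9.35 beside 9.49 to 9.52. Rrm1 was also apart in KL null replicate 3, at 9.65 beside 9.47 to 9.48. None of the 7 methylation genes had such an array. Msra, the gene second nearest to Dnmt3a, read 7.41 in KL WT replicate 3 beside 7.23 to 7.25.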

How the results depend on the processing

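The KSL count of 3 called members stayed within 1.5 times under every alternative run, and Dnmt3b and Tet1 kept their KSL calls in all 17 settings tried (-0.77 to -0.64 and -0.87 to -0.67). Dnmt3a was lost in KSL on replicates 3 and 4 alone (-0.26, adjusted p = 0.0798 from limma). In KL the count fell to 1, Tet1, with a fold of at least 1.5 or on replicates 1 and 2 alone, a split chosen after the values of Camkk2 were seen, which leaves 2 arrays a group. Leaving out 1 array gave 2 to 3 members in KL. With the replicate block, 3 members passed in KSL and 2 in KL (Dnmt3a at 0.0540 was lost), with 5665 and 4972 genes. Between 2 groups, an array correlated best with its own number in 3 to 5 of 8 cases, with 4 numbers to choose from. These counts lie above the average of random matching, and whether they differ from it was not tested. The methods' test after adjustment gave 3 members in each cell type (4588 and 3351 genes), and unadjusted it added Tet3 in KSL (10280 and 8045 genes). The 6 pair differences became 0 with signs exchanged within same-numbered pairs. That test has too few sign patterns over 4 pairs to reach the threshold, and its lowest adjusted p here was 0.208. When 1 array was left out, 0 to 6 pair differences passed. The filter on dim genes left out Tet2. Interaction and cell type counts of members stayed at 0, while genes called by cell type under WT ranged from 7 to 88.

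No called change turned its sign. Uncalled changes that did, with the value under that setting, were as follows. After quantile normalization Uhrf1 was at 0.05 in KSL and at 0.03 between cell types under null, and Tet2 minus Tet3 shifted by -0.02 in KSL and -0.01 in KL. On replicates 1 and 2, Dnmt1 was at -0.04 in KSL, -0.02 in KL, -0.02 in the interaction and -0.02 between cell types under null, and Tet2 at 0.01 in KSL. On replicates 3 and 4, Uhrf1 was at 0.08 in KSL and 0.04 between cell types under null, Tet2 at -0.06 in KL, Tet1 at 0.06 in the interaction, and Dnmt3a and Dnmt3b at -0.09 and -0.10 between cell types under WT. With 1 array left out the ranges were -0.10 to 0.05 for Uhrf1 in KSL, -0.00 to 0.14 for Dnmt1 in KL, -0.08 to 0.07 for Dnmt1 and -0.12 to 0.01 for Tet1 in the interaction. Between cell types they were -0.02 to 0.05 for Dnmt3a, -0.01 to 0.11 for Dnmt3b and -0.05 to 0.10 for Uhrf1 under WT, and -0.06 to 0.03 for Tet2 under null. For the KL pairs they were -0.08 to 0.02 for Dnmt1 minus Uhrf1 and -0.04 to 0.08 for Tet2 minus Tet3. The cause of these turns was not tested.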
